A study of Mus musculus with 8 samples.

Results

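The members are the 7 mouse genes of the Cip/Kip and Ink4 families of cyclin-dependent kinase (CDK) inhibitors, taken as every probe that the platform annotation gives to their symbols. The 7 genes, of 16593 gene symbols on the array, have 13 of the 25697 probes, 7 for the Cip/Kip genes Cdkn1a, Cdkn1b and Cdkn1c and 6 for the Ink4 genes Cdkn2a, Cdkn2b, Cdkn2c and Cdkn2d. Expression was measured on Illumina BeadArrays in cerebellum tissue at embryonic day 17.5, in 4 wild-type (WT) animals of genotype Pals1 fl/fl;Cre- and 4 conditional knockout (CKO) animals of genotype Pals1 fl/fl;Cre+. All 8 animals thus carried the floxed alleles of Pals1, a scaffold of the apical Crumbs polarity complex, and the CKO animals also carried hGFAP-Cre. According to the design text, this Cre removes Pals1 from most cerebellar neurons and glia, and a control with hGFAP-Cre alone is not part of the 8 arrays. The series asks whether Pals1 keeps cerebellar progenitors dividing, and the comparison here is how the inhibitors that stop the cell cycle differed between the genotypes.

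CDK inhibitors are small proteins that hold cells in the first gap phase of the cycle. Ink4 proteins bind Cdk4 and Cdk6 and block their pairing with D cyclins, whereas Cip/Kip proteins bind cyclin-CDK complexes of several kinds, above all those of Cdk2. In the developing cerebellum p27, the product of Cdkn1b, is known for its rise as granule cell progenitors leave the cycle, and p21, the product of Cdkn1a, is the classic target gene of p53.

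Cdkn1a rose in CKO cerebella on all 3 of its probes, by 1.71-fold to 1.90-fold. Cdkn1b and Cdkn2c fell on their brightest probes, to 0.703 and 0.675 of the WT level. Cdkn1c, Cdkn2a, Cdkn2b and Cdkn2d did not pass the test on any probe. A probe was tested if its mean log2 level over the 8 arrays was above the lower quartile of all probes, 6.26, and called at a limma adjusted p below 0.05. Of the 13 probes 11 were tested, which covers all 7 genes, and 3 were higher and 2 lower in CKO. Among all 19272 probes tested 8.15% were higher and 7.98% lower, 16.1% in all. The 5 called probes were also the 5 whose groups did not overlap, against 19.7% of all probes tested. With arrays scaled to a common median, 1053 of all probes were higher and 1824 lower in place of 1571 and 1537, and the members' 3 and 2 calls stood.

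**Figure D1:**
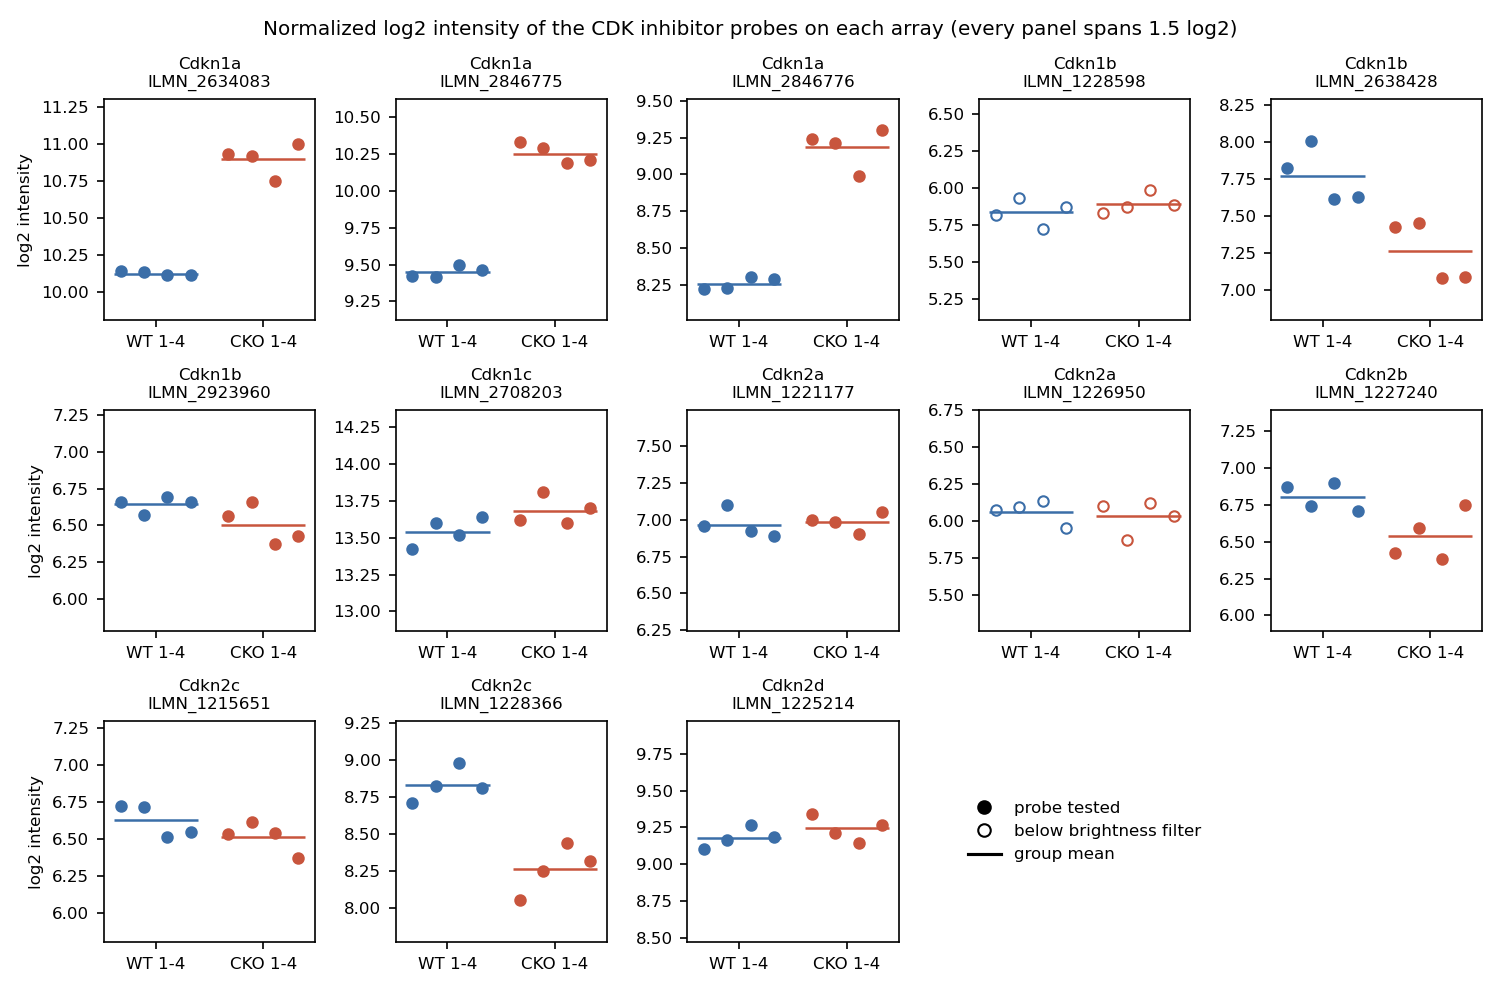
Normalized log2 intensity (vertical axis) of each of the 13 probes on the 4 WT arrays (blue) and 4 CKO arrays (red), in order of replicate number, with lines at the group means and open circles for the 2 probes below the brightness filter. The CKO points lie above all WT points in the 3 Cdkn1a panels and below them for Cdkn1b ILMN_2638428 and Cdkn2c ILMN_1228366.

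The targeted gene and the arrays bear on every result below. Pals1, listed under its older symbol Mpp5, fell by 0.87 on the log2 scale on its tested probe (SE 0.07, limma adjusted p = 7.17e-06), where WT stood at 7.06 ± 0.035 and CKO at 6.20 ± 0.088 (SD, n = 4 each). This probe passed the filter of 6.26 by its WT level, since its CKO level lay below it. The size of the fall therefore depends on the background setting, and was -1.34 with an offset of 16 in place of 50. The other Pals1 probe was below the filter, and where either probe lies relative to the deleted part is not given in the files. Raw array medians ran from 118.7 to 133.5. The first principal component, 47.7% of the variance, separated the genotypes, and the second, 16.2%, set CKO.3 apart. Xist, transcribed from the inactive X, was bright on WT.1, WT.2 and WT.4 (log2 level 9.71 to 10.10) and dim on WT.3 (6.83) and all CKO arrays (6.599 to 6.77), so that sex was unevenly spread over the groups. Bulk tissue cannot tell fewer cells of a type from less RNA per cell. Cell type markers also moved: 5 of 5 tested granule progenitor markers and 5 of 5 tested markers of postmitotic granule neurons were lower in CKO, 3 of 6 Purkinje markers were higher and 1 lower, and 7 of 8 microglial markers were higher. The summed normalized intensity of the marker lists did not overlap between groups for granule progenitors (13810 to 17600 in WT, 7455 to 9442 in CKO), granule neurons (14780 to 16370 against 9714 to 11270), Purkinje cells (8152 to 9052 against 11750 to 12470) and microglia (1295 to 1351 against 1649 to 1890), nor for the vascular and oligodendrocyte lists. These sums are on the linear scale and follow the brightest markers most. In WT these were Zic1 among granule progenitor markers (mean log2 level 13.29) and Olig1 among oligodendrocyte markers (12.72). Zic1 was called lower (limma adjusted p = 0.00181) and Olig1 was not called (limma adjusted p = 0.0673). Vascular markers had 2 of 8 higher (1520 to 1647 against 1662 to 2099), and meningeal markers 1 of 7 lower and 0 higher, with wide sums in CKO (3946 to 5207 against 4709 to 15450). The lower meningeal marker was Pdgfra, at -0.98, which is also the lower marker of the oligodendrocyte list. The other 6 meningeal markers changed by 0.18 to 1.47 without a call, and the median of the list was 0.50. Oligodendrocyte markers had 1 of 4 lower (6487 to 9051 against 5939 to 6374), choroid plexus 1 of 5 lower (663.6 to 827.6 against 509.6 to 794.1), glia 1 of 7 higher and 1 lower (27250 to 30660 against 26550 to 31450) and red blood cells 0 of 3 changed (16450 to 24510 against 17790 to 28510). The defining markers Atoh1 and Pax6 of granule progenitors and Calb1 of Purkinje cells were below the filter, whereas the cerebellar markers Barhl1, Zic1 and Pcp2 were tested and bright. The part of these cell type differences in the members' changes was not tested.

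Cdkn1a encodes p21, which inhibits cyclin-CDK complexes and binds the replication clamp. Its brightest probe, ILMN_2634083, read raw intensities of 1238.8, 1205.6, 1060.8 and 1099.5 on WT.1 to WT.4 and of 2093.4, 1785.2, 1769.6 and 1884.6 on CKO.1 to CKO.4. The lowest CKO array was thus well above the highest WT array. On the normalized log2 scale WT stood at 10.12 ± 0.015 and CKO at 10.90 ± 0.10 (SD, n = 4 each). The difference was 0.78 (SE 0.07, 95% interval 0.63 to 0.93, limma adjusted p = 1.88e-05), or 1.71-fold with an interval of 1.54 to 1.90. Only 44 of the 19272 tested probes had a larger rise.

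The other Cdkn1a probes gave the same direction on every array. ILMN_2846775 read 764.2, 748.5, 699.4 and 711.4 in WT and 1372, 1147.8, 1210.9 and 1093.4 in CKO, in order of replicate number. ILMN_2846776 read 338.3, 331.3, 318 and 319.1 in WT and 646.8, 553.1, 525.7 and 572 in CKO. Neither pair of groups overlapped. The log2 differences were 0.80 (SE 0.07, limma adjusted p = 9.03e-06) and 0.92 (SE 0.08, limma adjusted p = 9.46e-06). WT levels were tight on all 3 probes, with SDs of 0.015 to 0.043 against 0.065 to 0.13 in CKO. Within CKO the array CKO.3 was the lowest on each of the 3 probes (10.75, 10.19 and 8.99). WT.3, the WT array as dim for Xist as the CKO arrays, lay at 10.11, 9.49 and 8.31, with the other WT arrays. These probes read a single gene and are not replicates of its change.

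The rise held across settings. Over 22 alternatives the change of the brightest probe stayed between 0.74 and 0.84 with a limma adjusted p from 2.58e-06 to 0.00609, the last with the Xist level as a covariate. Without CKO.3 and WT.3 together all 3 probes were called.

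RefSeq's promoter table for GRCm38.p6 lists a pair of transcript starts for Cdkn1a, 2790 bases apart on the plus strand of chromosome 17. The 250 bases before each start are shown because Cdkn1a is the member that rose. The consensus of p53 was searched with that rise known, and a part of p53 in the rise was not tested. Capitals in the upstream window mark a stretch within 1 letter of the 20-letter consensus of p53, searched without a spacer (the consensus is its own reverse complement). It is the only such stretch before the listed starts of 6 members, and Cdkn1c, which has no listed promoter, was not searched. Capitals in the downstream window mark GC boxes (GGGCGG, either strand).
Cdkn1a, upstream start, chr17:29090729-29090978, plus strand: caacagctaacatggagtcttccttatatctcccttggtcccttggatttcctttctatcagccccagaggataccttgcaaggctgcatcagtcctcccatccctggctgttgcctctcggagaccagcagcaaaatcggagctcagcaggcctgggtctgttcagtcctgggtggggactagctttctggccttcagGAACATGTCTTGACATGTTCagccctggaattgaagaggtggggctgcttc
Cdkn1a, downstream start, chr17:29093519-29093768, plus strand: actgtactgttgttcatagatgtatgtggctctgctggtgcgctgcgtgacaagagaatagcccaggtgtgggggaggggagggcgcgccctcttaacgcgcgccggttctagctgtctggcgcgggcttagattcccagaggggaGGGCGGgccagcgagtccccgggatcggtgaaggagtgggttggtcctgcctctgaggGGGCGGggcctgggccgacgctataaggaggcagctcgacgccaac
The match lies 51 to 32 bases before the upstream start and differs from the consensus at 1 letter. Of all 32851 promoter windows of this length in the table, 25 hold such a match, 0.0761%. The upstream window has no GC box and the downstream window has 2, where 32.7% of all windows have at least 1 and 16.7% at least 2. These are matches of letters, with no measurement of binding behind them, and the files do not say which transcript the probes read.

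Cdkn1b encodes p27, the Cip/Kip inhibitor that accumulates as neural progenitors stop dividing. Its brightest probe, ILMN_2638428, read 256, 286.1, 202 and 210.1 on WT.1 to WT.4 and 193, 173.9, 148.7 and 136.9 on CKO.1 to CKO.4. Every CKO array lay below every WT array, by a narrow margin between CKO.1 and WT.3. On the normalized log2 scale WT stood at 7.77 ± 0.18 and CKO at 7.26 ± 0.21 (SD, n = 4 each). The level fell by 0.51 (SE 0.11, 95% interval -0.74 to -0.27, limma adjusted p = 0.00677). Of all tested probes 2.32% fell by more.

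The Cdkn1b fall depended on the probe and on the Xist covariate. ILMN_2923960, dimmer, with WT at 6.64 ± 0.053 and CKO at 6.51 ± 0.13 (SD, n = 4 each), changed by -0.14 (SE 0.08, limma adjusted p = 0.262), and its groups overlapped. It read 117, 110.5, 113.5 and 111.5 in WT and 111.1, 106.1, 94.7 and 93.7 in CKO, so that CKO.3 and CKO.4 were the lowest arrays on both probes. ILMN_1228598 lay below the filter, with raw values between 64.4 and 74.8 in WT and between 67.2 and 73.8 in CKO. As the mean of the 3 probes Cdkn1b changed by -0.20 (limma adjusted p = 0.0597). With the Xist level as a covariate ILMN_2638428 changed by -0.34 and was no longer called (limma adjusted p = 0.304). The alternatives gave a limma adjusted p of 0.00119 to 0.304. On the Xist-dim array WT.3 its level was 7.62, the lowest of the WT arrays, next to 7.63 on WT.4, and above the highest CKO level, 7.45.

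Cdkn1c encodes p57, the third Cip/Kip inhibitor, an imprinted gene expressed from the maternal allele. Its probe ILMN_2708203 was among the brightest on every array, with WT.1 to WT.4 at raw intensities of 12097.7, 13672.6, 12206.4 and 12393.9 and CKO.1 to CKO.4 at 13053.7, 12752.5, 12543.2 and 11566.2. The groups overlapped. The normalized change was 0.14 (SE 0.08, 95% interval -0.023 to 0.30, limma adjusted p = 0.253), and it was 0.015 with median scaling and 0.067 with cyclic loess. The probe stood above 99.4% of all probes on each array, and how a signal this bright scales with the RNA was not measured.

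Cdkn2c encodes p18, an Ink4 inhibitor of Cdk4 and Cdk6 expressed in dividing neural progenitors. Its brightest probe, ILMN_1228366, read 470.1, 496, 497.4 and 455.6 on WT.1 to WT.4 and 292.9, 293.9, 365.4 and 297.4 on CKO.1 to CKO.4. CKO.3 was the highest CKO array and still below every WT array. Normalized log2 levels were 8.83 ± 0.11 for WT and 8.26 ± 0.16 for CKO (SD, n = 4 each). The level fell by 0.57 (SE 0.09, 95% interval -0.76 to -0.38, limma adjusted p = 8.03e-04), and 1.82% of all tested probes fell by more. WT.3, dim for Xist, was the highest WT array at 8.98. The call held under all 22 alternatives (limma adjusted p from 2.39e-04 to 0.0167), with a change of -0.34 as the average of both probes. The second probe, ILMN_1215651, read 122.7, 121.6, 102.3 and 104.4 in WT and 109, 103.2, 105.7 and 91.1 in CKO. Its groups overlapped, and it changed by -0.11 (SE 0.08, limma adjusted p = 0.40).

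The promoters of the members that fell are shown beside that of Cdkn1a, with GC boxes in capitals. For Cdkn2c RefSeq lists a pair of starts, and the window before the upstream start is printed. The window before its downstream start holds neither a GC box nor a p53 match.
Cdkn1b, chr6:134920151-134920400, plus strand: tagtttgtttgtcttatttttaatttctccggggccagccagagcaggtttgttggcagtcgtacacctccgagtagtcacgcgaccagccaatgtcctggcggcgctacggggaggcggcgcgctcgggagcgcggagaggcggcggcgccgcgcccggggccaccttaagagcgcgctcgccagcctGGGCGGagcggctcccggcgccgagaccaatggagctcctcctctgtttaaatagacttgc
Cdkn2c, upstream start, chr4:109666757-109667006, minus strand: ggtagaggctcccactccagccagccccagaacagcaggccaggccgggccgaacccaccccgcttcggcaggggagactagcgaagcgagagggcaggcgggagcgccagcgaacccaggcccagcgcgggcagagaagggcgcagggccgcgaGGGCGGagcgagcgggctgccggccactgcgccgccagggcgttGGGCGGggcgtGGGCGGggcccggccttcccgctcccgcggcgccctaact
The Cdkn1b window holds 1 GC box and the Cdkn2c window 3, a number reached by 8.47% of all windows. Members that were not called have GC boxes as well, with 3 before Cdkn2d and 2 before the upstream start of Cdkn2a. The CCAAT box (CCAAT, either strand) occurs 2 times before Cdkn1b and 0 times before Cdkn2c, and 33.8% of all windows hold it. The E2F motifs TTTGGCGC, TTTCGCGC and TTTCCCGC, on either strand, occur in neither. They are in 0.417%, 0.256% and 0.895% of all windows.

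Of the other Ink4 genes Cdkn2b came closest to a call. It encodes p15, which TGF-beta induces in epithelial cells. Its only probe, ILMN_1227240, read 134.7, 123.4, 128.2 and 114.4 in WT and 102, 101.9, 95.3 and 112.3 in CKO. The raw groups did not overlap, but after normalization CKO.4 (6.75) stood within the WT range of 6.71 to 6.90. The change was -0.27 (SE 0.09, 95% interval -0.46 to -0.076, limma adjusted p = 0.0563; the alternatives gave 0.0225 to 0.224). It passed without CKO.4 (-0.34, limma adjusted p = 0.0225) and with array weights (-0.26, limma adjusted p = 0.0396), and changed by -0.40 with an offset of 16 (limma adjusted p = 0.06).

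Cdkn2a encodes both p16, an Ink4 inhibitor, and Arf, which stabilizes p53 by binding Mdm2. The files do not say which product its probes read. ILMN_1221177 read 142.9, 155.3, 130.3 and 128.8 in WT and 146.3, 129.5, 133 and 134.4 in CKO, and the groups overlapped. Its change was 0.019 (95% interval -0.13 to 0.17, limma adjusted p = 0.905), and the probe stood near the middle of each array, above 51.2% to 55.9% of all probes. ILMN_1226950 was below the filter, at 72.9 to 82.2 in WT and 67.1 to 83.3 in CKO. Cdkn2d encodes the Ink4 inhibitor p19, which persists in postmitotic neurons. Its probe ILMN_1225214 read 616.9, 632.6, 608.1 and 588.5 in WT and 694.8, 554, 586 and 560.9 in CKO. The groups overlapped, and the change was 0.064 (95% interval -0.087 to 0.22, limma adjusted p = 0.620), or -0.0051 with median scaling and 0.029 with cyclic loess.

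**Figure D2:**
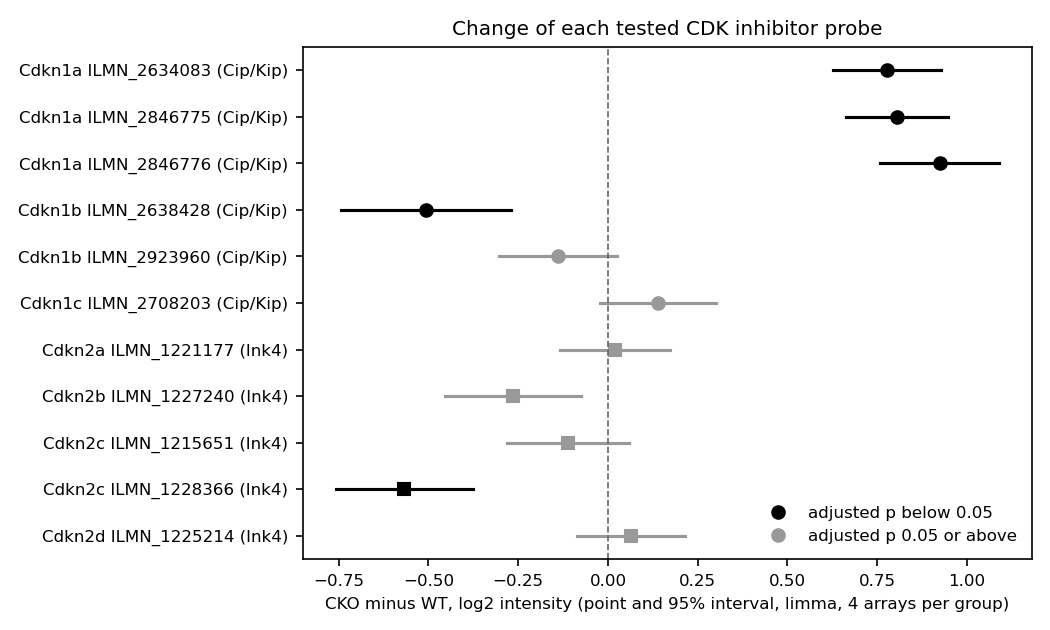
Difference CKO minus WT in log2 intensity (horizontal axis) for the 11 tested probes, with 95% intervals from limma, circles for Cip/Kip and squares for Ink4, black where the adjusted p was below 0.05. The 3 Cdkn1a probes lie at 0.78 to 0.92, while Cdkn1b ILMN_2638428 and Cdkn2c ILMN_1228366 lie at -0.51 and -0.57.

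Between the families, 3 of 6 tested Cip/Kip probes were higher and 1 lower, and 0 of 5 tested Ink4 probes were higher and 1 lower. The median change was 0.46 over the Cip/Kip probes and -0.11 over the Ink4 probes, beside 0.0063 over all probes tested. Since 3 of the 6 Cip/Kip probes read Cdkn1a, the medians were also taken with the brightest probe of each gene, which gave 0.14 for 3 Cip/Kip genes and -0.12 for 4 Ink4 genes. On the brightest probes each family held a gene that fell, Cdkn1b and Cdkn2c, so that direction did not follow family there. The other tested probes of these genes changed by -0.14 and -0.11 and were not called (limma adjusted p = 0.262 and 0.40). With the Xist covariate the brightest Cdkn1b probe was not called either (limma adjusted p = 0.304). The median absolute change was 0.27 over the 11 tested probes, against 0.10 over all probes.

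Whether members differed in their change was tested on the log2 difference between their brightest probes within each array, by exact permutation of the 8 arrays (70 assignments, two-sided) in each of the 21 pairs of genes. The smallest p this design allows is 0.0286, and 14 pairs reached it (adjusted p = 0.0429 over the 21 pairs). Cdkn1a changed differently from each of the other 6 members. The gap was 1.35 on the log2 scale to Cdkn2c, 1.29 to Cdkn1b, 1.04 to Cdkn2b, 0.76 to Cdkn2a, 0.71 to Cdkn2d and 0.64 to Cdkn1c. Cdkn1b and Cdkn2c, from different families, had a gap of 0.060 (exact permutation p = 0.714), and both changed differently from Cdkn1c, Cdkn2a and Cdkn2d. Cdkn2b differed from Cdkn1a, Cdkn1c and Cdkn2d, but not past the threshold from Cdkn2c (gap 0.30, exact permutation adjusted p = 0.075) or Cdkn2a (0.28, exact permutation adjusted p = 0.075). Some of these calls depended on the processing. The pair of Cdkn1c and Cdkn2b was not called in 8 of 14 alternatives, among them median scaling and cyclic loess (exact permutation adjusted p = 0.112 in both). Cdkn2b and Cdkn2d were not called apart in 6 of the 14, and Cdkn1b and Cdkn2d in 5. Without CKO.3 and WT.3 together 3 arrays a group remain, for which an exact permutation p cannot go below 0.1, and the gaps of Cdkn1a to the other members had the same sign. Without WT.3 alone 0 pairs passed the adjustment. The smallest p was again 0.0286 there, and the adjusted p depends on how many of the 21 pairs reach it. The gaps of Cdkn1a to the other members then ran from 0.64 to 1.33 (exact permutation adjusted p = 0.06).

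The probes of a gene were compared in the same way, in 5 pairs with both probes tested. For Cdkn1b the within-array difference ILMN_2638428 minus ILMN_2923960 was 1.12 ± 0.23 for WT and 0.75 ± 0.091 for CKO (SD, n = 4 each), a gap in change of -0.37 (exact permutation p = 0.0286, adjusted p = 0.0476). For Cdkn2c the difference ILMN_1215651 minus ILMN_1228366 was -2.21 ± 0.21 for WT and -1.75 ± 0.20 for CKO (SD, n = 4 each), a gap of 0.46 (exact permutation p = 0.0286, adjusted p = 0.0476). In both genes the dimmer probe, below the median probe of 6.84, changed less. The offset of 50 pulls changes of dim probes towards 0, and with an offset of 16 the dim probes changed by -0.22 and -0.17 and the gaps were -0.41 and 0.45 (exact permutation adjusted p = 0.0476 and 0.0714). Among the Cdkn1a probes ILMN_2846776 rose more than ILMN_2634083 by 0.15 (exact permutation p = 0.0286, adjusted p = 0.0476), a small gap beside the rise itself. The other 2 Cdkn1a pairs differed by 0.12 or less and did not pass, but with an offset of 16 ILMN_2846775 minus ILMN_2846776 changed by -0.17 and passed (exact permutation adjusted p = 0.0476). With the offset of 50, 0 of the 5 pairs passed when WT.3, WT.4 or any single CKO array was left out. Over all single arrays left out the gap ran from -0.43 to -0.26 for Cdkn1b and from 0.37 to 0.53 for Cdkn2c.

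**Figure D3:**
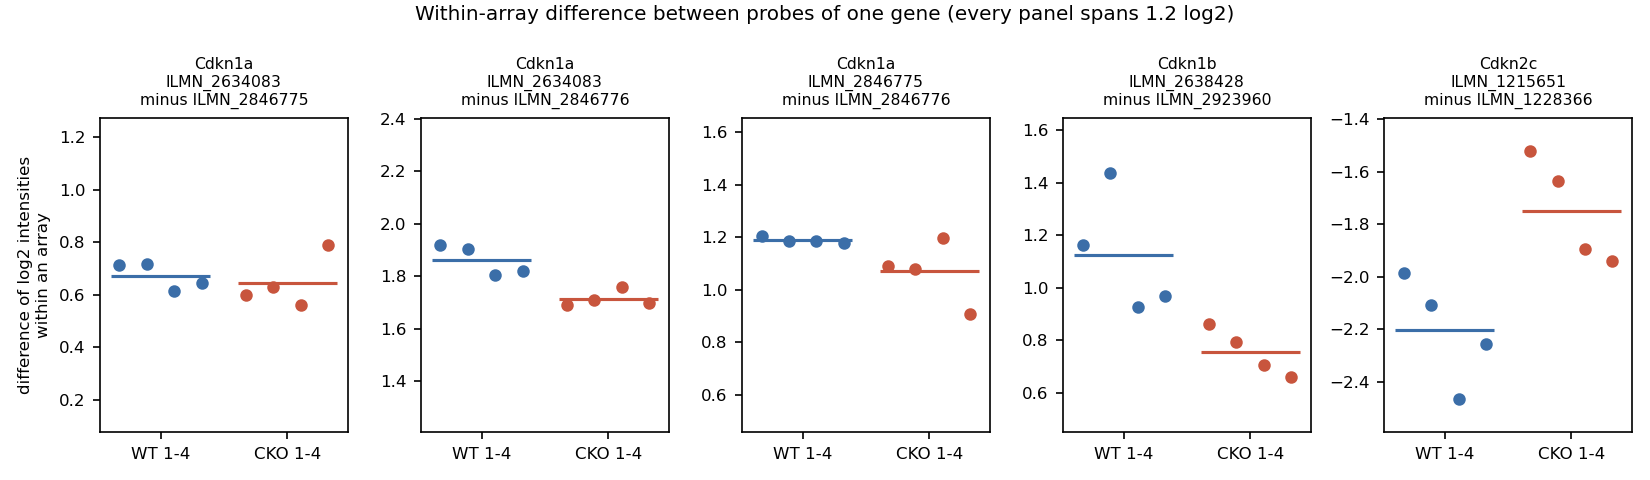
Difference in log2 intensity between 2 probes of a gene on the same array (vertical axis), for the 4 WT arrays (blue) and 4 CKO arrays (red) in order of replicate number, with lines at the group means. The groups are apart for Cdkn1b and Cdkn2c, by 0.37 and 0.46, and by 0.15 for ILMN_2634083 minus ILMN_2846776 of Cdkn1a.

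Genes that act with or on the inhibitors were read from 7 lists of 73 genes, of which 59 were tested, each by its brightest probe. Of these 2 were higher and 19 lower in CKO, against 8.97% and 8.50% of the 12912 genes tested on the array. Of the CDKs and cyclins, 5 of 8 tested fell, 0 rose and 3 did not pass. Their median change was -0.33 beside 0.0075 over all genes. Ccnd2, the D cyclin of granule cell progenitors, fell by 1.34 (limma adjusted p = 1.60e-06), from 10.82 to 9.48 as a mean log2 level. Cdk1, the mitotic kinase, fell by 0.81 (limma adjusted p = 2.00e-04), Cdk2, the main target of p21 and p27, by 0.81 (limma adjusted p = 8.17e-04) and Ccne2, a partner of Cdk2, by 0.39 (limma adjusted p = 0.00327). Ccnd1, another D cyclin, fell by 0.27 (limma adjusted p = 0.0491), and is named here with its values known. The members that did not pass were Cdk6 at -0.051 (limma adjusted p = 0.77), Ccne1 at 0.079 (limma adjusted p = 0.658) and Ccnd3 at -0.24 (limma adjusted p = 0.0525). Cdk6 is a direct target of Ink4 proteins, and Cdk4, the other one, was not analysed here. All 4 Cdk2 probes fell, whereas a dim second probe of Cdk1 changed by -0.17 (limma adjusted p = 0.208). Cdk2 stood at 10.30 on CKO.3, apart from the 9.62 to 9.69 of the rest of its group. With the Xist covariate Cdk2 changed by -0.81 and Ccne2 by -0.33, past no threshold (limma adjusted p = 0.0536 and 0.142). In that fit Rbl1, Dtl, Atm, Cbx2 and Smad4, described below, changed by -0.44, -0.40, -0.48, -0.33 and -0.40 and were not called either (limma adjusted p = 0.23, 0.0997, 0.12, 0.17 and 0.0575).

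Of the pocket proteins, which the CDKs phosphorylate, Rbl1 (p107) fell by 0.48 (limma adjusted p = 0.0130), and Rb1 changed by 0.24 on its brightest probe (limma adjusted p = 0.0585) and by 0.32 on its other probe (limma adjusted p = 0.00857). Of 12 tested ubiquitin ligases and partners that degrade Cip/Kip proteins 4 fell and 0 rose. Skp2, the receptor that marks p27 for degradation, fell by 0.71 (limma adjusted p = 2.28e-04) and on all 3 of its probes. Cdc20, an activator of the anaphase-promoting complex, fell by 1.05 (limma adjusted p = 2.11e-04), Dtl, the receptor of the Cul4 ligase for p21, by 0.48 (limma adjusted p = 0.00131) and the ring protein Rbx1 by 0.34 (limma adjusted p = 0.0313). Dtl stood at 6.64 in WT and at 6.155 in CKO, below the filter of 6.26, and changed by -0.82 with an offset of 16. The second Rbx1 probe, about as bright, changed by 0.015, and Rbx1 was not called once any single array but WT.4 or CKO.3 was left out (limma adjusted p up to 0.142 over the alternatives). Cks1b, the cofactor of Skp2, was not tested.

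Of 6 tested genes around p53, 1 rose and 2 fell. Ccng1, a cyclin that p53 induces, rose by 1.49 (limma adjusted p = 1.17e-06) and on all 3 probes. The DNA damage kinases Atm and Chek2 fell by 0.49 (limma adjusted p = 0.00448) and 0.27 (limma adjusted p = 0.0385). On this brightest probe Chek2 was not called once any single array but CKO.2 or CKO.3 was left out (limma adjusted p up to 0.123 over the alternatives). The other tested Chek2 probe changed by -0.39 (limma adjusted p = 0.00247). The 3 tested genes of this list that did not pass are named with their values known. Mdm2 changed by 0.11, Mdm4 by -0.012 and Usp7 by -0.20 (limma adjusted p = 0.287, 0.94 and 0.0768). Trp63 and Trp73 were not tested, and Trp53 was not analysed here. Of 13 Polycomb genes, whose products silence the Ink4 locus, 4 fell and 0 rose: Ezh2, the histone methyltransferase, by 0.77 (limma adjusted p = 1.98e-04), Phc2 by 0.37 (limma adjusted p = 0.0158), Cbx2, which binds the methylated histone, by 0.35 (limma adjusted p = 0.00865) and Suz12, a partner of Ezh2, by 0.23 (limma adjusted p = 0.0251). Suz12 was not called once WT.1, WT.2, WT.4, CKO.2 or CKO.4 was left out (limma adjusted p up to 0.318), and Phc2 without WT.2 or CKO.1 (up to 0.427 over the alternatives).

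Of 12 tested transcription factors known at Cip/Kip or Ink4 promoters 1 rose and 2 fell. E2f1, the S phase activator, fell by 1.196 (limma adjusted p = 1.18e-04), Smad4, the common mediator of TGF-beta and BMP signals, fell by 0.45 (limma adjusted p = 6.84e-04) and Klf4, an activator of Cdkn1a, rose by 0.21 (limma adjusted p = 0.0444). The other Klf4 probes changed by -0.04 and 0.14 (limma adjusted p = 0.828 and 0.399), and it was not called once any single array but WT.3 was left out (limma adjusted p up to 0.514 over the alternatives). Of 5 tested genes named as CDK inhibitors or binders outside both families, Cdk2ap1, a Cdk2-binding protein, fell by 0.64 (limma adjusted p = 3.59e-04), and Cables2 came next at 0.17 (limma adjusted p = 0.178).

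**Figure D4:**
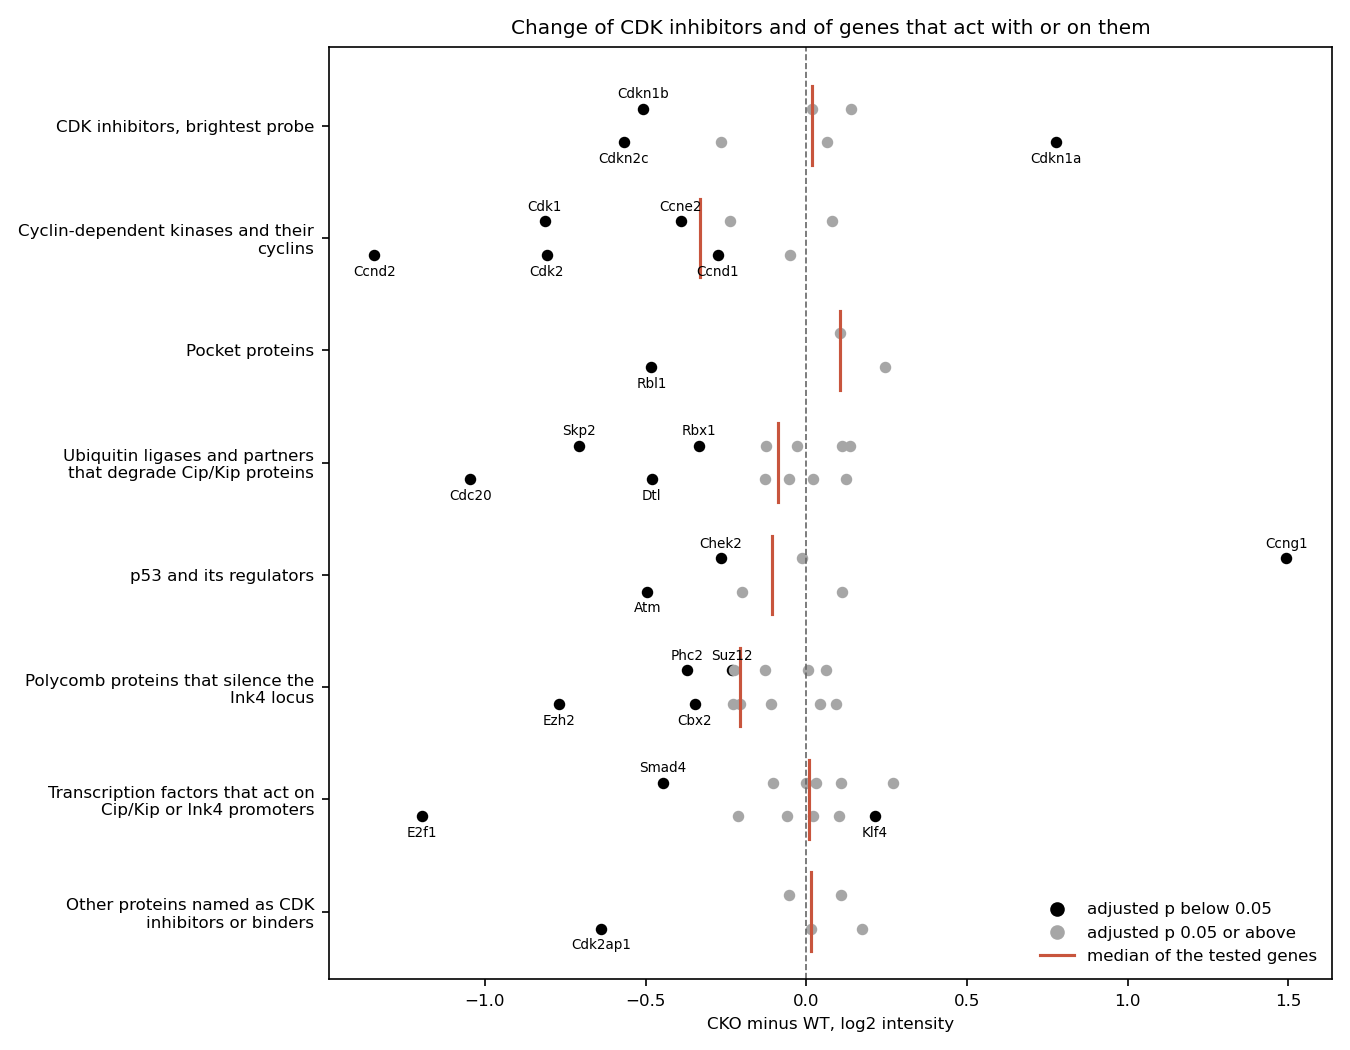
Difference CKO minus WT in log2 intensity (horizontal axis) for the brightest probe of the 7 CDK inhibitors and of the 59 tested genes of the 7 lists, black and named where the adjusted p was below 0.05, with red lines at the median of each row. Cdkn1a at 0.78 and Ccng1 at 1.49 lie far to the right, and Ccnd2 at -1.34 and E2f1 at -1.196 farthest to the left.

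The genes with the most similar course over the 8 arrays were found by the root mean square difference between log2 profiles centred on their means, among the 12911 other genes tested. The profiles share the arrays and, for these members, a genotype difference of like size. Nearest to Cdkn1a were Esrrb, a nuclear receptor, at 0.051, Fblim1, a filamin-binding protein, at 0.065, and Ak1, an adenylate kinase, at 0.0665, where the median gene was at 0.405. They changed by 0.71, 0.68 and 0.71. Nearest to Cdkn1b were Papola, a poly(A) polymerase (0.0797), Thsd4 (0.088) and Zfp106 (0.0963), with a median gene at 0.329. They changed by -0.50, -0.46 and -0.36. Nearest to Cdkn2c were Eif4e3, a cap-binding protein (0.0579), Espl1, the protease separase (0.0632), and Chaf1a, which assembles chromatin at replication forks (0.0633), with a median gene at 0.33. They changed by -0.47, -0.49 and -0.61.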

How the data were processed

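Total RNA of 8 cerebella was hybridised as biotin-labelled cRNA, an array per animal. The first deposited table holds linear intensities exported by the authors from BeadStudio, per the labels. The second holds the authors' log2 values, which match the log2 of quantile-normalized intensities to within 0.0137. Software versions and background handling are not given in the sources used here. Symbols came from the platform annotation, and 1719 probes have none. Members and lists were chosen with earlier results of these data known.

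Intensities were background-corrected (normexp, offset 50), quantile-normalized and taken to log2 with limma 3.58.1 in R 4.3.3. The 19272 probes above the lower quartile, 6.26, were fitted with genotype as the only term (lmFit, eBayes, two-sided), with Benjamini-Hochberg adjustment over them all. The fit was tested on simulated data. A gene is its probe with the highest mean. Named genes are all member probes, in each list up to 4 called genes in order of size of change, or the smallest p-values until 2 are named, and the 3 nearest profiles of each called member. Probe and gene pairs had exact permutation tests. Detection p-values and slide names were not used. The number of arrays limits the precision. Promoters are RefSeq's, for GRCm38.p6, and 6 of the 7 members had one. Figures used matplotlib 3.10.9 in Python 3.11.15. The deviations of same-numbered WT and CKO arrays from their group means had correlations of -0.05 to 0.14.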

Additional observations from a re-analysis of the deposited data

Results flagged for a closer look

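Of 96 groups of 4 arrays checked over 48 named probes, 6 had an array set apart from the others by more than Dixon's 95% critical value, where chance flags about 1 in 20. None was a member probe. For Cdk2, CKO.3 stood at 10.30, apart from the 9.62 to 9.69 of the rest of its group. Esrrb and Ak1, whose profiles are near that of Cdkn1a, read 10.02 and 9.25 on CKO.3, where the rest of the group read 10.27 to 10.31 and 9.40 to 9.42. Ezh2 read 9.21 on CKO.4 against 9.60 to 9.68, and Cbx2 read 7.44 on WT.4 against 7.29 to 7.31 on the other WT arrays. Xist read 6.83 on WT.3 against 9.71 to 10.10.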

How the results depend on the processing

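Over 22 alternatives Cdkn1a and Cdkn2c kept their direction and their calls on their brightest probes, Cdkn1b kept its direction, and Mpp5 kept its call wherever it was tested. With a gene as 1 probe 1 member was higher, and as the average of its probes 1 was higher and 1 lower. With the Xist covariate 1 member probe was lower, 1006 of all probes were called and 8 listed genes were lower. WT.3 alone links the groups in that fit. Listed genes higher in CKO came to 1 with median scaling, with no filter and with the replicate block. The replicate block called 2922 of all probes in place of 3108 and left the members' calls as they were. Only 1 of 4 same-numbered pairs had a correlation over 0.1. The labels give same-numbered samples only a number, and whether they share more than that was not tested. The median change of tested Cip/Kip probes was 0.14 with no filter and with 1 probe per gene. It was 0.78 with the filter at the median probe, where the Ink4 median was 0.019. In each of these settings other probes were tested. With averaged probes the Cip/Kip median was also 0.14, where each gene was the mean of its probes.

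Leaving out single arrays gave 3 to 3 member probes higher, 2 to 3 lower, 2093 to 3503 of all probes called, 1 to 2 listed genes higher, 14 to 20 lower, 0 to 3 probe pairs and 0 to 13 gene pairs called. Without WT.3 and CKO.3 together 0 probe pairs and 0 gene pairs could pass. As averages of their probes Cdk1, Atm, Ezh2 and Mpp5 changed by -0.33, -0.28, -0.33 and -0.42 and stayed called, and with an offset of 16 Dtl changed by -0.82 and Mpp5 by -1.34. Differences near 0 turned sign, none of them called. Cdkn2d was at -0.0051 with median scaling and -0.033 with the Xist covariate, which put Cdkn2c ILMN_1215651 at 0.018. Cdkn2a was at -0.0065 as the mean of its probes and ran from -0.0078 to 0.062 without single arrays. The gap between Cdkn1b and Cdkn2c was -0.0013 with an offset of 16 and ran from -0.064 to 0.18. That between Cdkn2a and Cdkn2d was 0.013 with median scaling and ran from -0.089 to 0.0017, and that between ILMN_2634083 and ILMN_2846775 from -0.070 to 0.0055. The cause was not tested. A slide block could not be fitted, since the columns used name no slide. Probes near background leave little room to see a fall.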
